A study of Mus musculus with 6 samples.

Results

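The Sox and forkhead transcription factors were examined as 2 gene families in the corneal epithelium of mice with and without epithelial Rela. A gene was taken as a member when its symbol in the deposited table was Sox with a number, or Fox with a letter from a to s and a number, with 1 symbol left out. This gave 48 of the 17866 genes of the table, 15 Sox and 33 forkhead genes. The rule used names only and no measured value. RNA from the corneal epithelium of C57BL/6 mice aged 6 months was sequenced in 6 bulk libraries, 3 labelled WT and 3 labelled Rela-/- (called KO here), each prepared from a biological sample of its own. The mutants carried Krt14-Cre on a homozygous floxed Rela background (Krt14-Cre; Rela f/f), and their lines had been crossed to B6 mice. Nothing further is given on the alleles of the WT controls. Rela encodes the p65 subunit of NF-κB. Krt14-Cre is also active in the limbus, conjunctiva, meibomian glands, skin, oral mucosa and trachea, so Rela was not removed from the corneal epithelium alone.

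Sox proteins bind the minor groove of DNA through an HMG box, usually together with a partner factor such as Pax6 or a POU protein, and are grouped by sequence from B1 to H. Forkhead proteins bind DNA through a winged helix domain. Several of them, such as the Foxa factors, can open closed chromatin, and the Foxo factors leave the nucleus when AKT or SGK kinases phosphorylate them. In surface epithelia, members of both families are known for setting cell identity, for stem cell maintenance and for the formation of hair and glands. In the eye, Sox2 and Foxc1 are known as genes of ocular development.

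The libraries held between 20158404 and 20880347 estimated counts, and 3 counts corresponded to between 0.137 and 0.152 CPM (counts scaled to a total of 1000000). Intervals from counts cover counting error only. Rela, which checks the labels, had 1871, 1844 and 1855 counts in the WT libraries, against 318, 223 and 313 in the KO libraries, so 16.5% of its WT level was left (log2 fold change -2.60, adjusted p = 2.74e-06). Adjusted p values here and below come from edgeR's quasi-likelihood test with Benjamini-Hochberg adjustment over 13305 tested genes. Markers of several cell types differed between the genotypes. All 6 corneal epithelial markers fell (summed level 68054 to 68880 CPM in WT, 11587 to 14327 CPM in KO), all 6 conjunctival and goblet cell markers rose (1874 to 2902 CPM, then 52218 to 66930 CPM), and 5 of 6 epidermal markers rose (all 6 summed to 1214 to 1409 CPM, then 12695 to 25158 CPM). Nearly all of the epidermal sum in WT was Dsg1a (30397.6, 25649.5 and 26883.9 counts), the marker that was not called (-0.38, adjusted p = 0.169). The 5 that rose had at most 226 counts in a WT library. Most of the conjunctival and goblet cell sum was Krt13 in both genotypes, while the goblet cell genes Muc5ac, Spdef and Agr2 had at most 215.9 counts in a library. Krt12, Aldh3a1 and Tkt remained detected in every KO library. In bulk tissue, fewer cells of a type and less RNA per cell cannot be told apart, and the part of these markers in the results below was not tested. No marker present in the table was at 0 in all 6 libraries. Only 7 of 10 listed endothelial, 8 of 9 T cell and 5 of 7 sebocyte markers were present there. Nothing can be said on the level of the absent ones.

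Of the 48 members, 30 had enough counts to be tested (9 Sox and 21 forkhead genes), and 19 of these differed at an adjusted p of 0.05, 11 higher and 8 lower in KO. That is 63.3% of the tested members, beside 62% of all tested genes (31.8% higher and 30.2% lower), so as a whole the families were called about as often as any gene. The Sox genes were called in 7 of 9 cases, 5 higher and 2 lower, with a median log2 fold change of 1.30 beside 0.01 over all tested genes. The forkhead genes were called in 12 of 21 cases, 6 higher and 6 lower, with a median of 0.04. The study's own threshold is stricter, at an adjusted p no higher than 0.001 together with a fold of 2 or more. With it, 8 members were called, 7 higher and 1 lower, beside 19.8% of all tested genes (11.6% higher and 8.24% lower). These 8 were Sox2, Sox4, Sox6, Sox7, Foxe1, Foxn1 and Foxp3, which were higher, and Foxo1, which was lower. In 19 of the 30 tested members the KO libraries did not overlap the WT libraries in CPM, beside 68.7% of all tested genes. This was 11 with KO above WT, beside 34.7%, and 8 with KO below WT, beside 33.9%. Members below the filter on low counts are described by their counts at the end of each family. A member or listed gene with almost no counts in WT passed this filter only through KO, so a call could then only be higher. Sox2 and Foxp3 are such members.

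**Figure D1:**
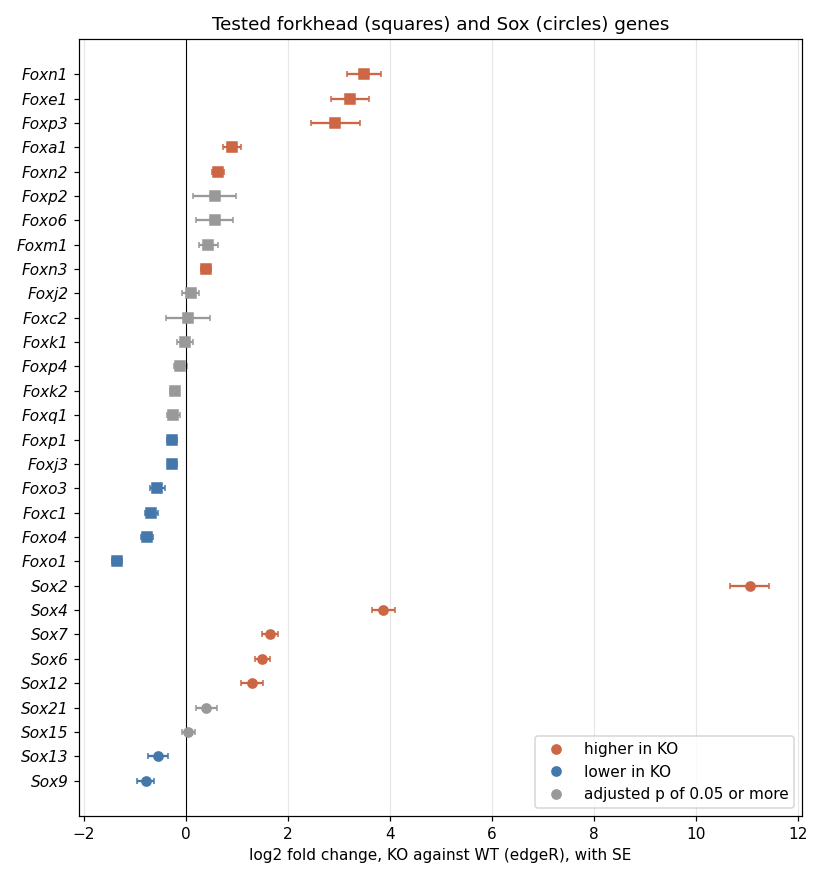
Log2 fold change of each of the 30 tested members, KO against WT, on the horizontal axis with its standard error (edgeR, n = 3 per group). Sox genes are circles and forkhead genes squares, and colour gives the call at an adjusted p of 0.05. Sox2 stands apart at 11.05, and Foxo1 at -1.35 is the lowest.

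Levels between genes are compared in FPKM, which divides counts by gene length and library total. Summed over the family, Sox genes had 104, 101 and 100 FPKM in the WT libraries and 155, 120 and 148 FPKM in the KO libraries (102 ± 2.08 and 141 ± 18.5, mean ± SD, n = 3). The forkhead sum moved the other way, with 232, 219 and 222 FPKM in WT and 203, 159 and 181 FPKM in KO (224 ± 6.81 and 181 ± 22.0). Neither sum overlapped between genotypes in FPKM, which lacks the library scaling of the edgeR fit. On log2(FPKM + 0.1) the median change over all tested genes was -0.0869, beside 0.00632 in that fit, so FPKM sums lean low in KO. Whether the sums stay apart with that scaling was not tested. KO replicate 2 was the lowest KO library for 24 of the 30 tested members, against 34.5% of all tested genes, and KO replicate 1 the highest for 20. Without KO replicate 2, 7 Sox and 13 forkhead genes were called.

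In WT, Sox15 was the most abundant Sox transcript at 50.9 ± 1.66 FPKM, 50.1% of the family's sum. Sox13 (16.4 ± 1.06 FPKM) came next, then Sox7 (11.9 ± 0.652 FPKM) and Sox21 (11.7 ± 1.43 FPKM), whose ranges overlapped, and then Sox9 (8.34 ± 1.23 FPKM). In KO the order was different. Sox15 still led with 34.9% of the sum, Sox7 had moved to 24.4% and Sox2 from 0.00661% to 12.6%, while Sox13 had gone from 16.1% to 7.2% and Sox9 from 8.19% to 3.2%. The KO ranges of Sox2, Sox21 and Sox13 did not all stand apart, since the libraries ran from 15.2 to 21.23 FPKM for Sox2, 11.7 to 19.29 FPKM for Sox21 and 7.16 to 13.21 FPKM for Sox13.

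**Figure D2:**
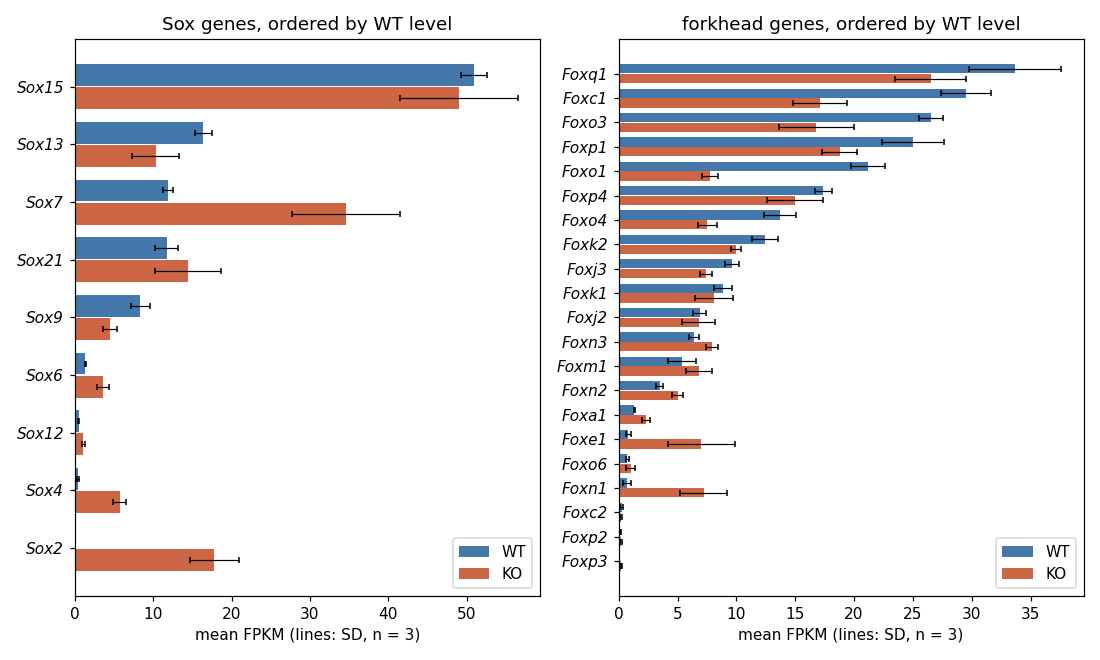
Mean level in FPKM (horizontal axis, lines are SD, n = 3) of the tested Sox genes (left) and forkhead genes (right), each ordered by the WT level, with WT in blue and KO in red. Sox15 leads the Sox genes in both genotypes at 50.9 and 49.0 FPKM, and Foxq1 leads the forkhead genes at 33.7 and 26.5 FPKM.

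The largest change of any member was in Sox2, the only B1 gene of the table and a gene known for stem cell maintenance and, with Pax6, for eye development. Sox2 (gene 20674, GRCm38 chromosome 3, 34649995 to 34652461, plus strand, inside the noncoding gene Sox2ot but sharing no exon with it) had 0, 1 and 0 counts in the WT libraries, against 1092, 760 and 877 in the KO libraries. It was thus at or under the floor of 3 counts in every WT library and well detected in every KO library. The ratio of the summed counts, 2729 in KO against 1 in WT, was 2938 after scaling (95% interval 527 to 116081). The fitted log2 value of 11.05 (SE 0.380, adjusted p = 3.69e-07) rests on edgeR's prior count, and it ranged from 4.21 to 12.88 over the 16 alternatives, all of which kept the call. In FPKM the KO libraries stood at 21.23, 15.2 and 16.93.

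As examples of called members, the RefSeq promoter sequences of Sox2 and Sox12 are shown, 250 bases before the annotated start, 5′ to 3′ on the gene's strand, in GRCm38.p6. Capitals mark a match to the Sox letters ACAAAG or the forkhead letters TGTTTAC on either strand. The Sox2 window is chr3:34649745-34649994 on the plus strand, with its Sox match beginning 206 bases before the start. The Sox12 window is chr2:152398047-152398296 on the minus strand, with a forkhead match 107 bases before the start. This RefSeq start lies inside the gene span of Sox12 given below, so the Sox12 window is within that span and not before it.
Sox2: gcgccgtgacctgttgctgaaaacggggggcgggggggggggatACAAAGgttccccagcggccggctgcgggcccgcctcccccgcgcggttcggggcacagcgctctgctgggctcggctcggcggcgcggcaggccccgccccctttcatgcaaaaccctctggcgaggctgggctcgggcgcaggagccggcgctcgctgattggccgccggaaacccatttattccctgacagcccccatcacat
Sox12: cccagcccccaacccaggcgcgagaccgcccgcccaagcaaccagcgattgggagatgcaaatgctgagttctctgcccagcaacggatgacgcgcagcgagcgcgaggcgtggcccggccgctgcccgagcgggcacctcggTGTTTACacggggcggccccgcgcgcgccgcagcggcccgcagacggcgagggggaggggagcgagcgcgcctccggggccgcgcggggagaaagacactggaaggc
A window was found for 30 of the 48 members and 14 of the 19 called ones, 38 windows in all because Sox6, Foxp1 and Foxp3 had several starts. By gene, the Sox letters were found in a window of 6 of the 30 members (20%) beside 18.6% of 27025 mouse genes, the forkhead letters in 2 (6.67% beside 3.54%), and the longer NF-κB consensus motif, searched on both strands, in 3 (10% beside 8.23%). By window, the Sox letters were in 11 of 38 (28.9%) beside 16.5% of 32851 mouse windows, and 5 of these 11 belonged to Sox6 and 2 to Foxp1, so the windows are not independent. A match is a description of the letters in a window and not of binding.

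The C group rose as far as it was measured. Sox4, known for progenitor survival and for epithelial plasticity, had 35, 19 and 24 counts in the WT libraries, against 397, 292 and 369 in the KO libraries (gene 20677, chromosome 13, 28946322 to 28953682, minus strand). Every KO library lay above every WT library. Its log2 difference was 3.87 (SE 0.230, adjusted p = 4.29e-06), from 0.423 ± 0.133 to 5.72 ± 0.798 FPKM. Sox12, a weaker activator of the same group, had 51, 46 and 35 counts in the WT libraries, against 101, 85 and 116 in the KO libraries (gene 20667, chromosome 2, 152393611 to 152399119, minus strand). The groups did not overlap, and the log2 difference was 1.30 (SE 0.219, adjusted p = 0.00103), from 0.470 ± 0.0917 to 1.09 ± 0.150 FPKM, so Sox12 stayed a low transcript. Sox11, the third gene of the group, fell under the filter with 4, 6 and 3 counts in the WT libraries, against 1, 15 and 11 in the KO libraries, which overlap.

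The D group, whose proteins have no activation domain of their own, was split. Sox6 (gene 20679, chromosome 7, 115470662 to 116041138, minus strand) was counted 243.4, 235.7 and 227 times in the WT libraries, against 609, 730 and 509 in the KO libraries. It was higher in all KO libraries, and went from 1.34 ± 0.0551 to 3.61 ± 0.772 FPKM (log2 fold change 1.50, SE 0.145, adjusted p = 5.28e-05). Sox13 (gene 20668, chromosome 1, 133381745 to 133424341, minus strand) moved the other way, with 1226, 1108 and 1086 counts in the WT libraries, against 928, 489 and 747 in the KO libraries. The groups did not overlap. Sox13 fell from 16.4 ± 1.06 to 10.3 ± 3.03 FPKM (log2 fold change -0.55, SE 0.203, adjusted p = 0.043). It kept its call in 9 of 16 alternatives. Leaving out a single library ended it in 5 of 6 cases, with an adjusted p of 0.116 without WT replicate 1, 0.0692 without WT replicate 2, 0.0834 without WT replicate 3, 0.0519 without KO replicate 2 and 0.0826 without KO replicate 3. Sox5, the remaining D gene, had between 2.1 and 7.7 counts per library and was not tested.

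Sox7, an F group gene best known from endothelium, came close to Sox21 in WT and stood alone behind Sox15 in KO. It had 784.5, 788.4 and 868.8 counts in the WT libraries, against 2836.2, 1842 and 2373.8 in the KO libraries (gene 20680, chromosome 14, 63943706 to 63950732, plus strand). All KO libraries lay above all WT libraries, and the level went from 11.9 ± 0.652 to 34.6 ± 6.89 FPKM (log2 fold change 1.64, SE 0.158, adjusted p = 5.14e-05). Endothelial markers were low in both genotypes. The 7 listed in the table summed to between 2.19 and 2.7 CPM in WT and between 3.41 and 4.05 CPM in KO, the largest part from Tie1, which had 26, 33 and 34 counts in the WT libraries, against 49, 27 and 37 in the KO libraries, and was not called (0.39, adjusted p = 0.279). The other tested marker, Pecam1, rose, with at most 16 counts in a library. Kdr had at most 2 counts in any library. Sox17, the other F gene in the table and likewise known from endothelium, had 0 counts in every WT library and 1.3, 0 and 2 counts in KO.

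In the E group only Sox9 was tested, a gene known for cartilage and for stem cells of the limbus and the hair follicle. Sox9 fell by 0.79 on the log2 scale (adjusted p = 0.00304), and 57.9% of its WT CPM was left. Sox10, which defines melanocytes and Schwann cells, had 5, 0 and 0 counts in the WT libraries, against 0, 0 and 1 in the KO libraries, and Sox8 had at most 1 count in a library. Of the 8 tested markers of melanocytes and Schwann cells, 6 fell, and the 12 in the table summed to 410 to 471 CPM in WT and 229 to 272 CPM in KO. Most of that sum came from Mbp and Erbb3. Of the melanocyte genes, Dct (-1.51, adjusted p = 0.00235) and Pmel (-0.89, adjusted p = 0.0116) fell, Tyr was not called (-0.12, adjusted p = 0.715), and Tyrp1 and Mlana had at most 2 counts in a library.

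Sox15, the only G gene and known from placenta and muscle, was the top Sox gene of both genotypes, and its count did not differ detectably. It had 1186, 1222 and 1150 counts in the WT libraries, against 1048, 1006 and 1354 in the KO libraries (gene 20670, chromosome 11, 69655037 to 69656727, plus strand, sharing exon sequence with Mpdu1 on the other strand). The groups overlapped (log2 fold change 0.05, SE 0.119, adjusted p = 0.755), and the interval of 2 SE on either side ran from -0.19 to 0.29. A correction for gene length turned this value to -0.34 (adjusted p = 0.0298). Sox21, a B2 repressor known from the hair shaft cuticle, was not called, at 0.40 (adjusted p = 0.116). It passed with the length correction (0.56, adjusted p = 0.0388) and without KO replicate 2 (0.55, adjusted p = 0.0495). Sox30, a testis gene, had 9, 3 and 4 counts in the WT libraries, against 1, 1 and 0 in the KO libraries, a ratio of 0.135 (95% interval 0.015 to 0.572), and was below the filter.

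Partner factors and co-repressors of Sox proteins were read from a list of 15 genes, of which 12 were tested, 4 higher and 3 lower in KO, with a median log2 fold change of 0.14. The share called was 58.3%, beside 62% of all tested genes. The POU factor Pou3f1 rose most, from 0, 1 and 3 counts in WT to 230, 146 and 259 counts in KO (log2 fold change 7.29, adjusted p = 9.2e-06). The co-repressor Tle1 was higher by 3.66 and the HMG factor Tcf7 by 3.60. Pax6, the master regulator of eye identity and a partner of Sox2 in the lens, fell by 1.54 on the log2 scale. Pax6 is also one of the 6 corneal markers above. Ctnnb1, the abundant co-activator of Tcf factors, did not pass (0.20, adjusted p = 0.0958).

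The 4 Foxo genes, effectors of PI3K and AKT signalling that drive cell cycle arrest and stress resistance, gave 3 falls and no rise. Foxo1 (gene 56458, chromosome 3, 52268337 to 52353381, plus strand) fell most among the tested members, with 2603, 2512 and 2289 counts in the WT libraries, against 915, 798 and 980 in the KO libraries. The 2 groups were far apart, and 39.2% of the WT level was left (log2 fold change -1.35, SE 0.101, adjusted p = 1.37e-05). In FPKM it went from 21.2 ± 1.47 to 7.74 ± 0.661. Foxo3 (gene 56484, chromosome 10, 42180207 to 42276746, minus strand) was counted 3892, 3894 and 3658 times in the WT libraries, against 2812, 1858 and 2543 in the KO libraries. It was lower in every KO library, by less, from 26.5 ± 1.02 to 16.8 ± 3.20 FPKM (log2 fold change -0.56, SE 0.146, adjusted p = 0.0102), and the length correction ended its call (-0.29, adjusted p = 0.118). Foxo4 fell by 0.76 on the log2 scale (adjusted p = 5.93e-04). Foxo6, a low transcript, was at 0.56 with an adjusted p of 0.206, and passed only without KO replicate 2 (0.86, adjusted p = 0.0345).

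The promoters of 3 forkhead genes are shown as windows of 250 bases with the same conventions. Other called members with a window are not printed, such as Sox4, whose window held none of the letters searched. The printed windows therefore do not show how common a match was. The Foxo1 window is chr3:52268087-52268336 on the plus strand, the Foxn1 window is chr11:78386609-78386858 on the minus strand, and the Foxc1 window is chr13:31806396-31806645 on the plus strand. As for Sox12, the start used for Foxn1 lies inside its gene span given below, and so does the Foxn1 window. Capitals in Foxc1 mark a match to the NF-κB consensus that begins 75 bases before the start, while the Foxo1 and Foxn1 windows held none of the letters searched.
Foxo1: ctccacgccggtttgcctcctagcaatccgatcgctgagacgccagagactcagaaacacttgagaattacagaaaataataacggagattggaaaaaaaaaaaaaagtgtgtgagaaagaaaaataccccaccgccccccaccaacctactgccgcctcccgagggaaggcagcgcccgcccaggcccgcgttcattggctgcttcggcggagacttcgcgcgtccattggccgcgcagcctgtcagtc
Foxn1: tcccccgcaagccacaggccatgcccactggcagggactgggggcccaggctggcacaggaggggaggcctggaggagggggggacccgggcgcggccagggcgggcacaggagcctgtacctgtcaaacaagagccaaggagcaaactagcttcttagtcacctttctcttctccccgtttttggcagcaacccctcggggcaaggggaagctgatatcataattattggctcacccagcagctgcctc
Foxc1: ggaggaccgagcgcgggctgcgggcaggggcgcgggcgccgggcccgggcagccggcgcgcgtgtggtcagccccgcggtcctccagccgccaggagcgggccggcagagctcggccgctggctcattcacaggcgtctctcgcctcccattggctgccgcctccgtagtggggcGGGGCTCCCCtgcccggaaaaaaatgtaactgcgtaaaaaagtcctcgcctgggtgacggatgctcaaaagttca
Foxd2 and Foxj2 were the other members with the NF-κB letters in a window. Of these 3 genes, Foxc1 was lower in KO, Foxj2 was not called, and Foxd2 had too few counts for a test.

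Most regulators of Foxo proteins did not pass the test. In a list of 17 kinases, phosphatases, acetylases and ubiquitin enzymes, all tested, 2 were higher and 4 lower, with a median log2 fold change of -0.15. The share called was 35.3%, beside 62% of all tested genes. Sgk3, a kinase related to the AKT kinases that inactivate Foxo proteins, fell by 1.49 on the log2 scale (adjusted p = 4.73e-05). The SGK kinases did not move together. Sgk1, at 99.7 FPKM in WT beside 21.5 FPKM for Sgk3, was higher by 0.38 (adjusted p = 0.0201). The acetylase Ep300 fell by 0.62. Akt1, the most abundant gene of the list that did not pass, was at -0.22 (adjusted p = 0.0507). Of 20 genes known as targets of Foxo factors, 17 were tested, and 2 were higher and 9 lower, with a median of -0.36. That is 64.7% of the tested targets, close to the 62% of all tested genes. Irs2 (from 4.76 to 2.22 FPKM), Klf2 (-0.97 on the log2 scale) and Cdkn1b (-0.90), a cell cycle inhibitor, were lower, whereas Bnip3, a mitophagy receptor that is also known as a hypoxia gene, was higher by 3.84.

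The most abundant forkhead genes in WT were Foxq1, Foxc1 and Foxo3, followed by Foxp1, Foxo1 and Foxp4. Foxq1 and Foxc1 lie in 1 cluster on chromosome 13, with Foxf2 between them, 67646 bases from the start of Foxq1 to that of Foxf2 and 180830 bases on to that of Foxc1. The 3 genes behaved differently. Foxc1, known for the anterior segment of the eye and for corneal transparency, had 2461.1, 2281 and 2652 counts in the WT libraries, against 1613.1, 1197 and 1456 in the KO libraries (gene 17300, 31806646 to 31836996, plus strand). It was lower in every KO library, from 29.5 ± 2.15 to 17.1 ± 2.29 FPKM (log2 fold change -0.68, SE 0.126, adjusted p = 0.00168). Foxq1, known from the hair shaft of satin mice, had 2093, 1710 and 2125 counts in the WT libraries, against 1649, 1312 and 1674 in the KO libraries (gene 15220, 31558170 to 31560976, plus strand). These groups overlap in CPM, and Foxq1 was not called (33.7 ± 3.92 and 26.5 ± 3.02 FPKM, log2 fold change -0.25, SE 0.129, adjusted p = 0.129). With library totals alone the value was -0.34 (adjusted p = 0.0346), and limma on log2 FPKM also called it. Foxf2, a mesenchymal gene, was under the filter with 1, 1 and 4 counts in the WT libraries, against 17, 6 and 31 in the KO libraries, a ratio of 9.69 (95% interval 4.17 to 27.6). Of 8 fibroblast markers, 5 were tested, of which 4 rose and 1 fell. Dcn rose most, from 1, 0 and 1 counts in the WT libraries to 153, 24 and 93 in the KO libraries (6.93, adjusted p = 4.2e-04), followed by Vim (3.51) and Col1a2 (3.38). Pdgfra fell from 275, 235 and 330 counts to 23, 28 and 21 (-3.43, adjusted p = 4.7e-06). The sum of the 8 was 13.3 to 16.9 CPM in WT, most of it Pdgfra, and 15 to 24.5 CPM in KO, and Lum had 0 counts in WT and at most 4 in KO.

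A similar cluster on chromosome 8 holds Foxf1, Foxc2 and Foxl1, with 31785 bases from Foxf1 to Foxc2 and 11514 bases from Foxc2 to Foxl1. These genes were hardly detected. Foxc2, known from lymphatic vessels, was tested at a level of 0.240 ± 0.0954 FPKM in WT and was not called (0.04, adjusted p = 0.943). Foxf1 had at most 3 counts in a library, and Foxl1, a gene of gut mesenchyme, had 8, 3.9 and 10.4 counts in the WT libraries, against 4.2, 3.9 and 0.8 in the KO libraries.

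All 3 Foxn genes of the table were higher in KO. Foxn1, the nude gene, which is known for the differentiation of keratinocytes, hair and thymic epithelium, had 31, 71 and 38 counts in the WT libraries, against 640, 367 and 456 in the KO libraries (gene 15218, chromosome 11, 78357577 to 78387654, minus strand). No KO library overlapped a WT library, and the level went from 0.697 ± 0.319 to 7.22 ± 2.01 FPKM (log2 fold change 3.49, SE 0.326, adjusted p = 4.41e-05). Foxn2 (0.63, adjusted p = 0.00153) and Foxn3 (0.40, adjusted p = 0.00615), which are expressed in many tissues, rose by less. Of 16 hair keratins and hair shaft genes linked to Foxn1 in the table, 2 had enough counts to be tested. Tchh, a protein of the inner root sheath, was higher by 1.33 (adjusted p = 0.0094), with 58, 58 and 147 counts in the WT libraries, against 195, 208 and 215 in the KO libraries, and Padi3 was not called (0.72, adjusted p = 0.478), while the other 14, all hair keratins, had at most 14 counts in a library. Epidermal markers other than Dsg1a rose beside Foxn1, as given above.

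Foxe1, known from the thyroid, the palate and the hair follicle, had 14, 17 and 24 counts in the WT libraries, against 231, 101 and 147 in the KO libraries (gene 110805, chromosome 4, 46344194 to 46345309, plus strand). The KO libraries were all higher, though they differed from each other by more than the WT libraries did, with 10.11, 4.55 and 6.39 FPKM. The log2 difference was 3.22 (SE 0.370, adjusted p = 1.3e-04), and the level went from 0.803 ± 0.222 to 7.02 ± 2.83 FPKM. Foxa1, a pioneer factor of glandular and secretory epithelia, rose by 0.90 (adjusted p = 0.00215). Goblet cell and conjunctival markers rose beside it, among them Krt4 and Krt13, and so did all 3 tested sebocyte markers (5 in the table, 56.2 to 62.8 CPM in WT and 209 to 279 CPM in KO). Nearly all of the sebocyte sum was Dgat2 (1215, 1277 and 1301 counts in WT, then 5365, 4022 and 4088), while Awat2 had at most 15 counts and Awat1 and Fa2h at most 1 in a library.

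**Figure D3:**
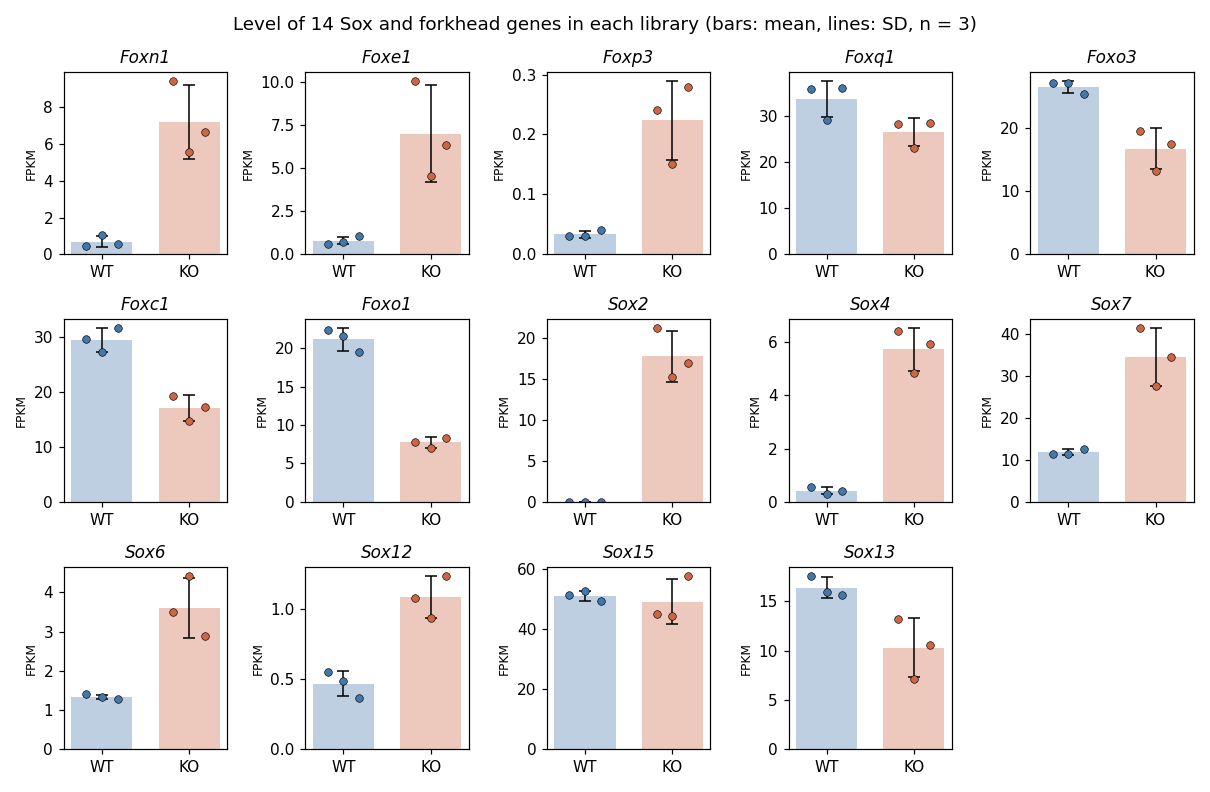
Level in FPKM (vertical axis, its own scale in each panel) of 14 Sox and forkhead genes in each library, WT in blue and KO in red. Points are libraries, bars are means and lines are SD (n = 3). Foxn1, Foxe1, Sox2, Sox4 and Sox7 are higher in every KO library, Foxo1 and Foxc1 lower in every KO library, and Sox15 overlaps.

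Among the Foxp genes, Foxp3 stood apart as the defining factor of regulatory T cells. It had 2.2, 2.3 and 3.4 counts in the WT libraries, against 18.8, 11.2 and 22 in the KO libraries (gene 20371, chromosome X, 7579676 to 7595243, plus strand, sharing exon sequence with Ccdc22, Ppp1r3f and Flicr). All KO libraries were above all WT libraries at a level of only 0.223 ± 0.0666 FPKM in KO. The ratio of summed counts was 7 (95% interval 3.3 to 17.1), and the fitted log2 fold change was 2.93 (SE 0.476, adjusted p = 8.44e-04). T cell markers rose beside it. All 6 of the tested ones were higher, beside 31.8% of all tested genes. Of these, Cd3d, Cd3g, Ctla4 and Lck had at most 7 counts in a WT library. Like Foxp3, they passed the filter on low counts only through KO, so a call could only be higher and the 2 shares are not comparable. The 8 in the table summed to 3.73 to 4.68 CPM in WT and 10.3 to 14.6 CPM in KO. Ctla4 had 0 counts in every WT library, against 12, 11 and 21 in KO. Il2ra alone gave most of that sum in WT. The widely expressed repressor Foxp1 was called lower by a small margin (-0.27, adjusted p = 0.0436) although its groups overlap in CPM. Its call was kept in 9 of 16 alternatives, and it was lost without WT replicate 1 (0.155), WT replicate 3 (0.138), KO replicate 2 (0.114) or KO replicate 3 (0.13), each an adjusted p. The call was also lost with RLE factors (adjusted p = 0.0535) and a mean count of at least 50 (adjusted p = 0.0648). With the length correction the Foxp1 value was -0.00 (adjusted p = 0.973). Foxp4 (-0.11, adjusted p = 0.499) and the low transcript Foxp2 (0.56, adjusted p = 0.281) were not called.

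Foxm1, which drives genes of mitosis and is itself made in dividing cells, was not called, at 0.44 (adjusted p = 0.0635). Its groups overlapped, with 408, 616 and 451.9 counts in the WT libraries, against 738, 545 and 576 in the KO libraries. Without WT replicate 2 it was called (0.64, adjusted p = 0.0115), and it also passed with DESeq2 (0.45, adjusted p = 0.0493) and with the length correction (0.63, adjusted p = 0.0167). The genes known as its targets were all called. Each of the 15 listed was higher in KO, with a median log2 fold change of 1.16 and no overlap between groups. Over all tested genes, 31.8% were called higher and 34.7% had every KO library above every WT library. Together the 15 targets summed to 231 to 314 CPM in WT and 623 to 641 CPM in KO. The phosphatase Cdc25b was higher by 2.09, the cyclin Ccnb1 by 1.66, the centromere histone Cenpa by 1.63 and Cdc20 by 1.55. These are genes of the dividing cell in general and respond to other factors as well.

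**Figure D4:**
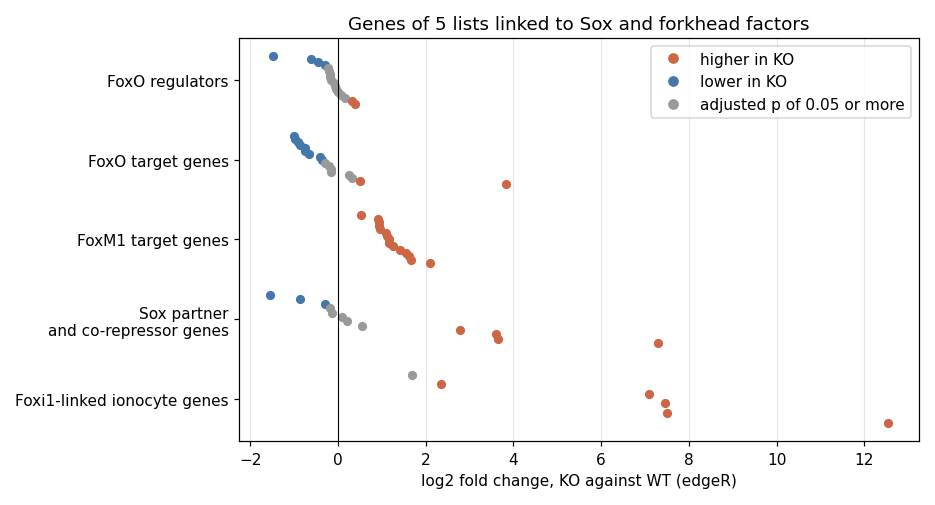
Log2 fold change, KO against WT (horizontal axis, edgeR), of each tested gene in 5 lists linked to Sox and forkhead factors (rows), coloured by call at an adjusted p of 0.05. The 15 Foxm1 target genes all lie to the right of 0, and the Foxo target genes lie mostly to the left with Bnip3 at 3.84. Of the 6 ionocyte genes 5 were called higher, some of which passed the filter on low counts only through KO.

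The Foxk genes, Foxj2 and Foxj3 are expressed in many tissues. Foxk1 (-0.02, adjusted p = 0.927), Foxk2 (-0.22, adjusted p = 0.0599) and Foxj2 (0.09, adjusted p = 0.656) were not called. Foxk2 passed with library totals alone (-0.32, adjusted p = 0.0174) and under limma on log2 FPKM. Foxj3 was called lower (-0.27, adjusted p = 0.027), a call kept in 11 of 16 alternatives. It was lost without WT replicate 1 (adjusted p = 0.0888), WT replicate 2 (0.0966), WT replicate 3 (0.0508) or KO replicate 3 (0.103), and with the length correction its value was -0.02. Foxj1, the master gene of motile cilia, had at most 1 count in a library. Of 10 cilium genes in the table, 4 were tested and 1 was called, Ccdc40, which was lower (-3.42, adjusted p = 9.98e-04) with at most 25 counts in a library.

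Foxi3, a gene of ectodermal appendages, had 1, 0 and 0 counts in the WT libraries, against 9, 3 and 1 in the KO libraries, a ratio of 14 (95% interval 2.1 to 595), and was too low to test. The genes of acid and chloride transport known to depend on its relative Foxi1 in ionocytes were among the largest changes of any list. Of 10, 6 were tested and 5 were higher, with a median log2 fold change of 7.27, which was the same with Atp6v0a4 set at its bound against 3 counts. Over all tested genes, 31.8% were called higher. Atp6v0a4, Atp6v1c2 and Car2 had at most 7 counts in a WT library, so they passed the filter on low counts only through KO. For them a call could only be higher, so the 5 of 6 and the median are not comparable with that share. The proton pump subunit Atp6v0a4 had 0 counts in every WT library and 930.9, 626.9 and 566.9 counts in KO. Atp6v1c2 was higher by 7.49, the carbonic anhydrase Car12 by 7.45 and Car2 by 7.09. Atp6v1b1, Ascl3 and Cftr, 3 genes used to mark ionocytes, were under the filter with at most 10 counts in a library. Car12 and Car2 are also made in other epithelia. Foxi1 itself is not among the genes of the table, so no level can be given for it.

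The forkhead genes that remain were at the edge of detection. Foxd1, Foxd2, Foxd4, Foxr2 and Foxs1 had at most 3 counts in any library. Foxr1 had 5.3, 7.1 and 7.3 counts in the WT libraries, against 4.4, 1.9 and 0 in the KO libraries, and Foxh1, a partner of Smad proteins, had 13.1, 7.2 and 5.1 counts in the WT libraries, against 2.1, 7.9 and 5.9 in the KO libraries. Without the filter on low counts, 2 of the 18 untested members passed an adjusted p of 0.05, Foxf2 higher (3.18, adjusted p = 0.00951) and Sox30 lower (-2.70, adjusted p = 0.036).

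RSEM shares reads among genes that fit them equally, and 18 members had estimated counts that were not whole numbers. Exons of 15 members overlap those of another annotated gene, in most cases on the other strand, and the sources do not state whether counting used strand. Beside Sox15 and Foxp3 these were, among the genes given in full, Sox4 with Gm26735, Foxe1 with Gm12446, Foxo1 with Gm20402 and Foxq1 with A530084C06Rik, so reads of each pair could have been counted together.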

How the data were processed

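RNA-seq data of 6 corneal epithelium libraries were used as deposited. The study describes rRNA removal and short single reads from a BGISEQ instrument, while the labels name an Illumina kit. The authors filtered reads with SOAPnuke, and the submitters' processing notes name Bowtie2 2.2.5, RSEM 1.2.12 and the build mm9, whereas the coordinates in the table match GRCm38 and are given as such. From the RSEM run the authors deposited the estimated count, the FPKM and the TPM of each gene in each library, of which 18 columns matched a labelled sample and 0 did not. Between 30.35% and 32.26% of genes per library had estimated counts that were not whole. Deposited TPM served as a check of the library sum of 1000000. The authors' own log2 fold changes and adjusted p-values, deposited in the same table, were not used.

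Rounded estimated counts went into edgeR 4.0.16 (R 4.3.3), with TMM factors of 0.952 to 1.05 and the filterByExpr filter. Genotype was the sole term of glmQLFit and glmQLFTest, and p-values were Benjamini-Hochberg adjusted over 13305 genes. SE is the absolute log2 fold change over the square root of F. Ratios of low counts carry exact binomial 95% intervals. Alternatives were RLE factors, library totals, other count filters, robust dispersion, DESeq2 1.42.0, limma 3.58.1 on log2(FPKM + 1) and log2(FPKM + 0.1), a loess length offset, a replicate block and leaving out each library. The edgeR fit was tested on simulated counts, also with RLE factors, a replicate block, robust dispersion and the length offset. The DESeq2 and limma fits were not tested in this way.

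Members with an absolute log2 fold change of at least 1 at an adjusted p under 0.05, and the 3 Sox and 3 forkhead genes of highest WT FPKM, are given in full, other tested members by log2 fold change and adjusted p, and untested ones by counts. The counts of Foxm1 are an addition. Up to 4 genes of each list were named by size of change or by level. Further marker genes were named after their values were seen. The members, lists and tests were chosen with earlier results of these data known, so no list is independent evidence. Promoters came from RefSeq (GRCm38.p6), strands and exon overlaps from GENCODE M21, because the strand in the table differed from it for 7 members. Protein sequences were not used here, and 1 symbol of the family and 1 gene of the Foxo regulator list are not reported here. No information beyond the replicate label separates biological from technical spread, apart from the methods' statement of independent samples.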

Additional observations from a re-analysis of the deposited data

How the results depend on the processing

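Over 16 alternative fits, 15 of the 19 called members kept their call under every alternative in which they were tested, and no called member changed sign. Foxp3 was tested in 15 of them, since it lay under a mean count of 50. The 4 others were Sox13, Foxo3, Foxp1 and Foxj3, whose values are given with each gene, for Sox13 only those with single libraries left out. At the threshold of the study the Sox calls went from 7 to 4 and the forkhead calls from 12 to 4. The Sox genes called lower went from 2 to 1 with a mean count of at least 50, and to between 1 and 2 when single libraries were left out. The forkhead genes called lower went from 6 to 3 with the length correction. Genes that changed sign were all uncalled in the fit reported. Foxc2 went to -0.06 with library totals, -0.01 with limma on log2(FPKM + 1) and -0.04 on log2(FPKM + 0.1), and lay between -0.27 and 0.35 with single libraries left out. Foxj2 went to -0.01, -0.03 and -0.03 under the same 3 settings and lay between -0.07 and 0.25. Sox15 went to -0.05, -0.06 and -0.06, to -0.34 with the length correction, and lay between -0.09 and 0.13. Foxk1 went to 0.01 with a mean count of at least 50 and 0.26 with the length correction, and lay between -0.20 and 0.11. Foxk2 (0.00) and Foxp4 (0.06) also crossed 0 with the length correction, and Foxp4 lay between -0.24 and 0.02. The cause was not tested. The labels do not say whether the replicate numbers pair the animals. Deviations of same-numbered libraries correlated at 0.0345, -0.00998 and 0.0606, and those of differently numbered libraries at -0.159 to 0.123. These values show no shared effect of the number, but they cannot settle whether animals were paired. With a replicate block, 8083 of all genes, 7 Sox and 13 forkhead genes were called, the added one being Foxq1 (-0.25, adjusted p = 0.0377). Library totals gave 3709 higher and 4630 lower genes in place of 4231 and 4022. At a few counts per library, differences are known only within wide counting intervals.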
